A study of Mus musculus with 6 samples.

Results

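The genes described here are 42 genes of the secretory pathway and the unfolded protein response. They encode the channel that admits new proteins to the endoplasmic reticulum (ER), the enzymes and chaperones that glycosylate and fold them, the machinery that removes misfolded ones, and the sensors of folding stress. Open chromatin near them was read out by ATAC-seq, a method that marks accessible DNA with adaptors carried by a transposase. A deposited table of counts in 90823 consensus peaks covered all libraries. A peak was given to a gene when its centre lay within 50 kb of an end of that gene and nearer to it than to any other protein-coding gene, and 181 peaks met this rule, of 72404 peaks given to any gene. They fell into 47 gene-end peaks, with a base within 1 kb of either end of the gene, and 134 other peaks. Across the genome the numbers were 16292 and 74531. A peak was found for 40 of the 42 genes and a gene-end peak for 38.

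The 42 genes were chosen by function, but with results of these libraries known: the gene-end peaks of Pdia3 and Stt3b stood 3 and 4 in the order of p-values among gene-end peaks higher with PGE2 than with vehicle. The values of PGE2 over vehicle, and of PGE2 over AA, are therefore given as a description and without p-values. AA over vehicle uses the same vehicle libraries. Its p-values for the members, above all for Pdia3 and Stt3b, are therefore not free of this choice either. At the 50 kb limit, the last peak inside belonged to Stt3b, 46127 bp from its end, with a mean of 111 CPM (read-pair counts scaled to a common library size) with AA, 109 with PGE2 and 113 with vehicle. The first peak outside lay 52630.5 bp from Atf6, with 4.48 CPM with AA, 3.46 with PGE2 and 1.30 with vehicle. At the 1 kb limit, the last gene-end peak was a weak one of Hspa5 (3.12 CPM with AA, 2.07 with PGE2, 2.14 with vehicle), and the first peak beyond it belonged to Ddit3 (4.27 CPM with AA, 1.81 with PGE2, 2.14 with vehicle).

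The 6 libraries came from mouse intestinal organoids, which are crypt cells grown as 3-dimensional epithelium in Matrigel. Organoids received 25 µM arachidonic acid (AA, 2 libraries), 50 nM prostaglandin E2 (PGE2, 2 libraries) or vehicle (2 libraries) for 3 days. The protocol names PGE2, whereas the design text names a dimethyl form of it. All groups shared a medium with EGF (40 ng/ml), Noggin (50 ng/ml), R-spondin (62.5 ng/ml), N-acetylcysteine (1 µM), CHIR-99021 (5 µM), Y-27632 (20 ng/ml), and B27 and N2 supplements. CHIR-99021 inhibits GSK3, and the vehicle organoids carried all of these agents as well. Each library was made from 50000 sorted epithelial cells by the Omni-ATAC method. The labels give no strain, genotype, age or intestinal segment, and do not say whether the 2 libraries of a group came from separate cultures, so p-values measure only the spread between libraries, which may be technical. The series asks how dietary AA alters chromatin linked to intestinal stemness.

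Secreted and membrane proteins enter the ER through the SEC61 channel, receive N-linked glycans from the oligosaccharyltransferase and are folded by chaperones and protein disulfide isomerases. Proteins that fail to fold are withdrawn to the cytosol and destroyed, a process called ER-associated degradation. When unfolded proteins accumulate, the sensors IRE1 (gene Ern1), PERK (Eif2ak3) and ATF6 start the unfolded protein response, and the transcription factors XBP1, ATF4 and ATF6 raise the genes of this machinery. In the intestine this response is known for its part in goblet and Paneth cells, which secrete much of what they make.

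Libraries held 12374232 to 14236985 counts. The share of counts in gene-end peaks was 35.3% and 35.8% with AA, 37.4% and 38.9% with PGE2, and 34.8% and 34.3% with vehicle. Gene-end signal as a whole was thus higher in both PGE2 libraries, and the second PGE2 library was the highest. This library exceeded the first PGE2 library at 31 of the 37 strongest member peaks that were tested. Its median log2 ratio to the first was 0.06 at these peaks and 0.07 over all gene-end peaks. Member gene-end calls that were lost without it, or values that moved by over 1.5 times, are given below. All 8 epithelial marker genes searched had gene-end peaks, with a summed 762 to 791 CPM in every library. Single epithelial peaks still differed. With PGE2, peaks of Cdh1 (log2 change 0.44), Epcam (0.28) and Cldn7 (0.27) were called higher, and Krt8 peaks (-0.24 and -0.22) lower. With AA, peaks of Cldn7 (0.28), Krt19 (0.18) and Cdx2 (0.17) were called higher. Goblet markers (7 of 9 with a peak) summed to 113 and 119 CPM with AA, 114 and 122 CPM with PGE2, and 127 and 126 CPM with vehicle. Both treated groups were below vehicle in this sum, and Spink4 was called lower with AA (log2 change -0.46, adjusted p = 5.38e-05), whereas none of the other goblet peaks was called with AA. With PGE2, Spink4 was called lower as well (log2 change -0.45), and a weak Tff3 peak was called higher (log2 change 1.18). Without Spink4 the goblet sum was 89.6 and 96.1 CPM with AA, 91.1 and 98.2 CPM with PGE2, and 97.4 and 92.9 CPM with vehicle, and the groups overlapped. Immune markers (2 of 8 with a peak, Itgam and Cd68) summed to 45.8 and 40.1 CPM with AA, 39.8 and 43.7 CPM with PGE2, and 34.4 and 36.2 CPM with vehicle. Both peaks rose with AA, and that of Itgam was also called higher with PGE2 (log2 change 0.34). The Itgam peak lay at the 3′ end of its gene, and the Cd68 peak centre lay 578 bp from an end of Eif4a1. The pan-immune gene Ptprc had no gene-end peak. Paneth (4 of 7), stromal (1 of 7) and endothelial (2 of 7) markers summed to 21.9 to 26.8, 13.1 to 14.7 and 3.91 to 4.65 CPM. The part of these marker differences in the results below was not tested. In sorted bulk cells, fewer cells of a type and less accessibility per cell cannot be told apart.

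With all peaks scaled together, gene-end accessibility of the secretory genes was mostly higher after treatment, by small amounts. So was that of gene-end peaks as a whole. In AA over vehicle, 10 of 46 tested gene-end peaks rose and 2 fell at an adjusted p under 0.05 (edgeR's quasi-likelihood test, Benjamini-Hochberg over 89347 peaks). Over all 16110 gene-end peaks tested, 14.6% rose and 8.11% fell. The median log2 change was 0.10 for the members and 0.05 for all gene-end peaks. In PGE2 over vehicle, 21 of 46 were called higher and 2 lower, beside 31.0% and 5.58% of all gene-end peaks, with medians of 0.18 and 0.13. In PGE2 over AA, 10 were called higher and 0 lower, beside 16.3% and 1.77%, and the member median of 0.09 was below that of all gene-end peaks, 0.12. Member peaks were stronger than most. Among gene-end peaks averaging 10 CPM or more, 24.4% of 41 member peaks rose and 4.88% fell with AA, against 19.3% and 6.0% of 10121, with medians of 0.10 and 0.09. With PGE2 51.2% and 40.1% of these peaks were called higher, with medians of 0.24 and 0.17, and in PGE2 over AA 24.4% and 19.9%, with medians of 0.12 and 0.10. AA and PGE2 were set against the same vehicle libraries, so their values are not independent of each other.

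How gene-end and other peaks were scaled changed the PGE2 split. With both kinds of peak scaled separately, 12 member gene-end peaks were called higher and 8 lower with PGE2, so that 60.0% of calls were higher instead of 91.3%. The median over all gene-end peaks was then -0.04 instead of 0.13, and the member median was 0.02 instead of 0.18. The 12 peaks still called higher were those of Canx, Hyou1, Rpn1, Rpn2, Stt3b, Pdia3, Pdia6, Ern1, Sec61a1, Sec62, Sec63 and Ssr1. In PGE2 over AA the split became 7 higher and 6 lower, 53.8% instead of 100%. The member median was then -0.03 instead of 0.09. In AA over vehicle the split was 9 higher and 2 lower, with a member median of 0.05 instead of 0.10.

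**Figure D1:**
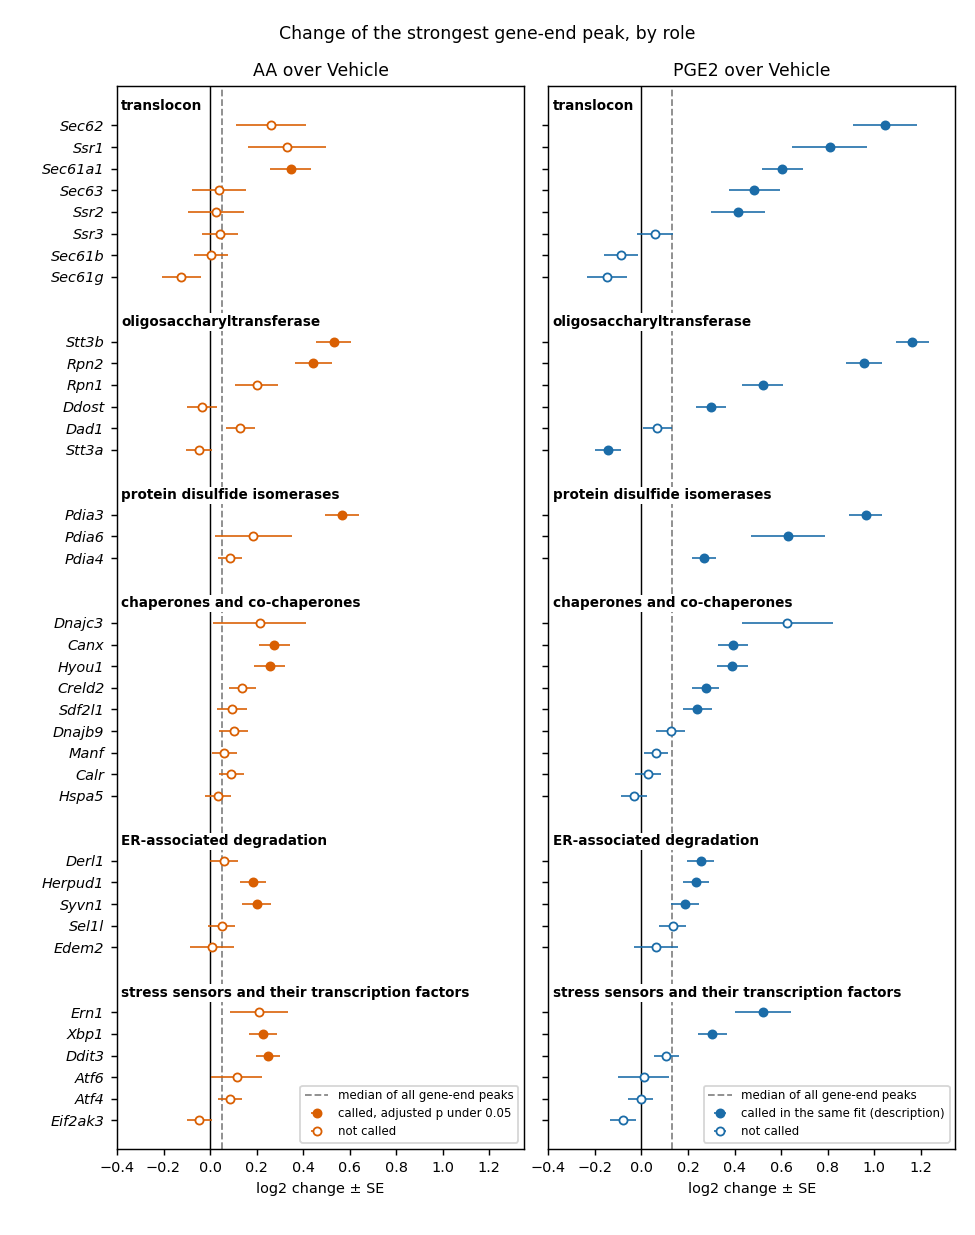
Log2 change (x axis) of the strongest gene-end peak of 37 genes by role, AA over vehicle on the left and PGE2 over vehicle on the right, with standard errors, and dashed lines at the median of all gene-end peaks. Stt3b, Sec62, Pdia3 and Rpn2 lie furthest right in the PGE2 panel, at 0.96 to 1.16, and Pdia3, Stt3b and Rpn2 in the AA panel, at 0.44 to 0.57.

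Each gene is described below by its strongest gene-end peak, which 37 genes had among the tested peaks. None of these 37 fell with AA with edgeR or with DESeq2, and 0 were lower at an unadjusted p under 0.05 in edgeR. Mean accessibility followed the order PGE2, AA, vehicle from high to low at 24 of the 37 (64.9%), against 39.1% of all gene-end peaks, an order that the choice of the genes may favour. The share over all gene-end peaks includes weaker and second peaks and was not matched on strength. At the 21 peaks averaging 50 CPM or more over the 6 libraries the median log2 change with PGE2 was 0.19, and at the 16 weaker peaks it was 0.52. Over all gene-end peaks of 50 CPM or more and of 10 to 50 CPM the medians were 0.10 and 0.19. The counts of each role below stand beside 14.6% higher and 8.11% lower of all gene-end peaks with AA. With PGE2 these shares were 31.0% and 5.58%. Among gene-end peaks averaging 10 CPM or more, 19.3% were called higher with AA and 40.1% with PGE2. Each role holds few peaks, and differences from these shares were not tested.

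The translocon genes include the channel subunit Sec61a1 and the partners Sec62 and Sec63, which help proteins to enter after translation. Of 8 translocon peaks, 1 rose and 0 fell with AA, and 5 were called higher and 0 lower with PGE2. Sec61a1 had 39.7 and 40.6 CPM with AA, 42.3 and 53.8 CPM with PGE2, and 32.5 and 30.7 CPM with vehicle. Both treated groups lay above vehicle without overlap. The log2 change was 0.35 ± 0.09 (SE) with AA (adjusted p = 0.00447) and 0.60 ± 0.09 with PGE2.

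Sec62 had 15.3 and 15.6 CPM with AA, 21.9 and 31.3 CPM with PGE2, and 12.9 and 12.9 CPM with vehicle. The groups did not overlap, but the PGE2 libraries differed from each other. The log2 change was 0.26 ± 0.15 with AA, not called (adjusted p = 0.208), and 1.05 ± 0.14 with PGE2, or 0.77 without the second PGE2 library. Ssr1, a subunit of the translocon-associated protein complex, had 19.9 and 19.7 CPM with AA, 22.4 and 32.9 CPM with PGE2, and 15.9 and 15.6 CPM with vehicle. The log2 change of Ssr1 was 0.33 ± 0.17 with AA (adjusted p = 0.179) and 0.81 ± 0.16 with PGE2. Without the second PGE2 library the change of Ssr1 was 0.51, and without the second vehicle library its PGE2 call was lost at 0.79. Sec63, which binds the ER chaperone BiP, had 18.01 and 17.46 CPM with AA, 20.6 and 27.8 CPM with PGE2, and 16.9 and 17.7 CPM with vehicle. AA and vehicle libraries of Sec63 overlapped, whereas both PGE2 libraries were above them. The log2 change of Sec63 was 0.04 ± 0.11 with AA (adjusted p = 0.83) and 0.49 ± 0.11 with PGE2, and without the second PGE2 library it was 0.25 and not called. Ssr2, another subunit gene of the translocon-associated complex, stood at 0.02 with AA and was called higher with PGE2 at 0.42, a call lost without the second PGE2 library at 0.27 and without the first vehicle library at 0.40. Ssr3 of the same complex was called in neither contrast (0.04 with AA, 0.06 with PGE2). The small channel subunits Sec61b and Sec61g had log2 changes of 0.00 and -0.12 with AA and of -0.09 and -0.15 with PGE2, none called. Under separate scaling, both were among the 8 gene-end peaks called lower with PGE2.

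The oligosaccharyltransferase transfers the glycan to nascent proteins, with STT3A or STT3B as the catalytic subunit. Of 6 peaks of this enzyme, 2 rose and 0 fell with AA, and with PGE2 4 were called higher and 1 lower. Stt3b had 49.2 and 56.2 CPM with AA, 75.6 and 87.5 CPM with PGE2, and 35.8 and 36.9 CPM with vehicle. The 3 groups were fully apart. The log2 change of this peak (chr9:115309608-115311439) was 0.53 ± 0.08 with AA (1.45-fold, adjusted p = 1.75e-06) and 1.16 ± 0.07 with PGE2 (2.24-fold). Stt3a, which encodes the other catalytic subunit, had 83.6 and 83.4 CPM with AA, 77.8 and 78.5 CPM with PGE2, and 83.8 and 88.8 CPM with vehicle. Its log2 change was -0.05 ± 0.05 with AA (adjusted p = 0.541) and -0.14 ± 0.05 with PGE2, a call that leaving out any PGE2 or vehicle library, or the second AA library, ended at values of -0.19 to -0.10. The 2 catalytic subunits thus differed in direction with PGE2, which was not tested between them.

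Rpn2 had 39.9 and 39.6 CPM with AA, 51.8 and 61.7 CPM with PGE2, and 28.3 and 30.2 CPM with vehicle. Ribophorin II, its product, is a non-catalytic subunit, and the groups were again apart. The log2 change was 0.44 ± 0.08 with AA (adjusted p = 2.74e-05) and 0.96 ± 0.08 with PGE2. Rpn1, for ribophorin I, had 23.1 and 25.2 CPM with AA, 29.7 and 30.6 CPM with PGE2, and 21.8 and 20.2 CPM with vehicle, with log2 changes of 0.20 ± 0.09 (adjusted p = 0.0927) and 0.52 ± 0.09. Ddost was called higher with PGE2 at 0.30 and stood at -0.03 with AA, and Dad1 was called in neither (0.13 with AA, 0.07 with PGE2). Of the member gene-end peaks, 8 also had a base within 1 kb of an end of a neighbouring gene. They stood at Rpn2, Dad1, Pdia3, Creld2, Manf, Atf4, Ddit3 and Sec61b, and each belongs to a shared region.

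**Figure D2:**
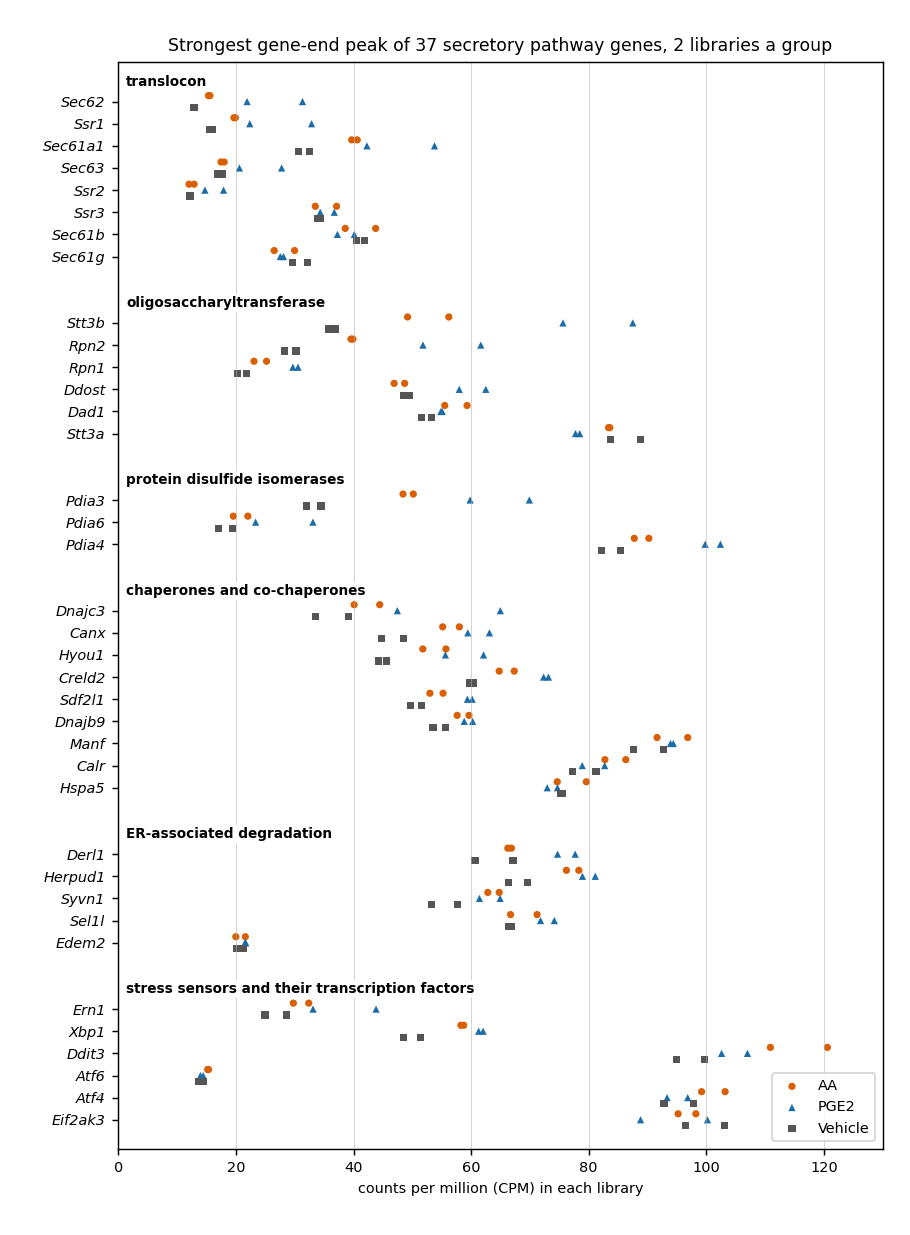
CPM (x axis) of the strongest gene-end peak of 37 genes in each of 6 libraries, by role, with AA as circles, PGE2 as triangles and vehicle as squares. Stt3b, Rpn2 and Pdia3 show 3 separate pairs of points, while those of Hspa5, Calr and Eif2ak3 overlap.

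Protein disulfide isomerases form and rearrange disulfide bonds. Of their 3 peaks, 1 rose with AA and 3 were called higher with PGE2. Pdia3, which works with the lectin chaperones calnexin and calreticulin on glycoproteins, had 48.4 and 50.2 CPM with AA, 59.8 and 69.9 CPM with PGE2, and 34.5 and 32.0 CPM with vehicle. The groups did not overlap. The log2 change of the Pdia3 peak (chr2:121413143-121414686) was 0.57 ± 0.07 with AA (1.48-fold, adjusted p = 7.47e-08) and 0.96 ± 0.07 with PGE2 (1.95-fold). Pdia4 had 87.8 and 90.2 CPM with AA, 99.8 and 102 CPM with PGE2, and 82.2 and 85.5 CPM with vehicle, with log2 changes of 0.09 ± 0.05 (adjusted p = 0.229) and 0.27 ± 0.05. Pdia6 had 19.6 and 22.0 CPM with AA, 23.4 and 33.1 CPM with PGE2, and 19.4 and 17.1 CPM with vehicle. On the log2 scale it stood at 0.19 ± 0.16 with AA (adjusted p = 0.445) and 0.63 ± 0.16 with PGE2. Pdia6 stood at 0.36 with PGE2 without the second PGE2 library, and its call was lost at 0.54 without the second vehicle library.

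Of 9 tested chaperone and co-chaperone peaks, 2 rose and 0 fell with AA, and 4 were called higher and 0 lower with PGE2. Canx, for the membrane lectin chaperone calnexin, had 55.2 and 58.0 CPM with AA, 59.4 and 63.1 CPM with PGE2, and 48.6 and 44.8 CPM with vehicle. Its log2 change was 0.28 ± 0.07 with AA (adjusted p = 8.62e-04) and 0.39 ± 0.06 with PGE2. Hyou1, for a large ER chaperone that also acts as a nucleotide exchange factor, had 51.8 and 55.7 CPM with AA, 55.6 and 62.1 CPM with PGE2, and 45.6 and 44.3 CPM with vehicle. Its log2 change was 0.26 ± 0.07 with AA (adjusted p = 0.00274) and 0.39 ± 0.07 with PGE2. For both genes the treated libraries lay above both vehicle libraries.

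Hspa5, which encodes the main ER chaperone BiP, did not share these values at its promoter. Its peak had 79.6 and 74.7 CPM with AA, 73.0 and 74.7 CPM with PGE2, and 75.5 and 75.3 CPM with vehicle. The AA and vehicle libraries overlapped, the PGE2 libraries were slightly below vehicle, and neither contrast was called. The log2 change was 0.03 ± 0.06 with AA (adjusted p = 0.689) and -0.03 ± 0.06 with PGE2, and separate scaling turned the AA value to -0.01 and put the PGE2 value among the lower calls. Calr, for calreticulin, had log2 changes of 0.09 with AA (adjusted p = 0.21) and 0.03 with PGE2, and the PGE2 value turned to -0.14, called lower, under separate scaling. Creld2 had 67.3 and 64.8 CPM with AA, 72.3 and 73.2 CPM with PGE2, and 60.3 and 59.7 CPM with vehicle, with log2 changes of 0.14 ± 0.06 (adjusted p = 0.0665) and 0.28 ± 0.06. Creld2 encodes a secretory protein known as a stress-induced gene, and it passed the threshold with AA when either PGE2 library was left out. Sdf2l1, a stress-induced ER protein gene, was called higher with PGE2 at 0.24, and not without the first vehicle library at 0.21. Dnajb9, Dnajc3 and Manf were not called in either contrast, with log2 changes of 0.06 to 0.21 with AA and of 0.06 to 0.63 with PGE2. Dnajc3, a co-chaperone of BiP, had 40.1 and 44.5 CPM with AA, 47.5 and 65.0 CPM with PGE2, and 39.2 and 33.6 CPM with vehicle. It was called higher with PGE2 by DESeq2 (0.62) and without the first (0.84) or the second (0.38) PGE2 library, and with AA without either PGE2 library (0.21 and 0.22). The gene-end peak of Hsp90b1, for the ER member of the HSP90 family, lay at its 3′ end with 2 to 11 counts per library and was not tested.

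Of 5 ER-associated degradation peaks, 2 rose and 0 fell with AA, and 3 were called higher and 0 lower with PGE2. Herpud1, a stress-induced membrane component of the degradation complex, had 76.2 and 78.3 CPM with AA, 81.1 and 78.9 CPM with PGE2, and 69.5 and 66.4 CPM with vehicle. Its log2 change was 0.18 ± 0.06 with AA (adjusted p = 0.0099) and 0.24 ± 0.06 with PGE2. Syvn1, which encodes the ubiquitin ligase HRD1 at the centre of that complex, had 62.8 and 64.8 CPM with AA, 64.9 and 61.4 CPM with PGE2, and 57.7 and 53.3 CPM with vehicle. Both genes were above vehicle in all treated libraries, and AA and PGE2 overlapped at Syvn1. The log2 change of Syvn1 was 0.20 ± 0.06 with AA (adjusted p = 0.0104) and 0.19 ± 0.06 with PGE2. Without the second vehicle library the PGE2 calls of Herpud1 (0.20) and Syvn1 (0.13) were lost, and that of Syvn1 also without the first PGE2 library (0.15). Derl1, for a channel-like component of the complex, had 66.9 and 66.2 CPM with AA, 74.7 and 77.7 CPM with PGE2, and 60.7 and 67.1 CPM with vehicle, with log2 changes of 0.06 ± 0.06 (adjusted p = 0.49) and 0.25 ± 0.06. Without the first vehicle library the PGE2 call of Derl1 was lost at 0.18. Sel1l, the adaptor of HRD1, had 0.05 with AA and 0.13 with PGE2, and Edem2, for a mannosidase-like protein, had 0.01 and 0.06, none called. A second, weaker Edem2 peak inside the gene fell with AA, to 9.15 and 8.32 CPM, against 13.1 and 14.7 CPM with vehicle (log2 change -0.66, adjusted p = 5.10e-05). With PGE2 this second Edem2 peak was also called lower, though not with DESeq2 and not in every fit without 1 library.

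Of the sensors and transcription factors, Ddit3 and Xbp1 rose with AA, 2 of 6 peaks, and Ern1 and Xbp1 were called higher with PGE2. Ddit3 encodes the transcription factor CHOP of the PERK branch. It had 111 and 121 CPM with AA, 103 and 107 CPM with PGE2, and 99.7 and 94.9 CPM with vehicle. Both AA libraries were above all others, with a log2 change of 0.25 ± 0.05 (adjusted p = 2.07e-04), and PGE2 stood at 0.11 ± 0.05. Xbp1, whose messenger RNA is spliced by IRE1, had 58.3 and 58.7 CPM with AA, 61.3 and 62.0 CPM with PGE2, and 51.4 and 48.5 CPM with vehicle. On the log2 scale Xbp1 changed by 0.23 ± 0.06 with AA (adjusted p = 0.00401) and 0.30 ± 0.06 with PGE2.

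Ern1 had 29.8 and 32.4 CPM with AA, 33.1 and 43.8 CPM with PGE2, and 28.6 and 25.0 CPM with vehicle. The treated libraries of this sensor were all above vehicle, with a log2 change of 0.21 ± 0.12 with AA (adjusted p = 0.233) and 0.52 ± 0.12 with PGE2. The PGE2 change of Ern1 was 0.31 without the second PGE2 library, and its call was lost at 0.43 without the second vehicle library. Eif2ak3 had 95.2 and 98.2 CPM with AA, 88.8 and 100.2 CPM with PGE2, and 96.5 and 103 CPM with vehicle. Atf4 had 103 and 99.2 CPM with AA, 93.3 and 96.8 CPM with PGE2, and 92.8 and 97.9 CPM with vehicle. Atf6 had 15.2 and 15.3 CPM with AA, 13.96 and 14.43 CPM with PGE2, and 14.6 and 13.7 CPM with vehicle. Peaks at Eif2ak3, Atf4 and Atf6 were not called, with log2 changes of -0.05 ± 0.06 (adjusted p = 0.57), 0.09 ± 0.05 (adjusted p = 0.213) and 0.11 ± 0.11 (adjusted p = 0.455) with AA, and of -0.08 ± 0.06, 0.00 ± 0.05 and 0.01 ± 0.11 with PGE2. Eif2ak3 was called lower with PGE2 without the second PGE2 library, at -0.17. A weaker peak at the 3′ end of Atf4 fell with AA, to 20.8 and 18.3 CPM, against 22.1 and 25.0 CPM with vehicle (log2 change -0.26, adjusted p = 0.0405). This Atf4 call was lost without the second AA library at -0.17 and without the second vehicle library at -0.17. Ern2, the IRE1 form of mucus-secreting epithelium, had 4 other peaks and no gene-end peak, with log2 changes of -0.75 to 0.28 with AA, none called.

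The calls with AA differed in how far they depended on 1 library. The peaks of Stt3b, Pdia3 and Rpn2 rose in the fit without any 1 library and also with DESeq2. Ddit3 rose in each fit without 1 library but not with DESeq2. Without the second vehicle library the calls of Canx (0.22), Xbp1 (0.19), Hyou1 (0.23), Sec61a1 (0.31), Herpud1 (0.15) and Syvn1 (0.14) were lost. Without the second AA library those of Hyou1 (0.20), Sec61a1 (0.33), Herpud1 (0.17) and Syvn1 (0.18) were lost too. When either PGE2 library was left out, the peaks of Creld2, Dnajc3, Ern1, Sec62 and Ssr1 were called higher with AA as well, making 17 calls. In number, 6 member gene-end peaks were called without the second vehicle library and 7 without the second AA library, against 12 with all libraries.

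In PGE2 over AA, the 10 peaks called higher were those of Derl1, Ddost, Rpn1, Rpn2, Stt3b, Pdia3, Pdia4, Sec62, Sec63 and Ssr2. Stt3b was 0.63 higher with PGE2 than with AA on the log2 scale, Rpn2 0.51 and Pdia3 0.40. The 6 sensors and factors gave 0 calls in this contrast and ranged between -0.14 (Ddit3) and 0.31 (Ern1). Stt3b, Rpn2, Pdia3 and Ddost were called in each fit without 1 library. Without the second PGE2 library the calls of Derl1 (0.16), Pdia4 (0.16), Sec63 (0.21) and Ssr2 (0.24) were lost, and Sec62 stood at 0.50 instead of 0.78. In that fit 7 member peaks were called, 6 higher and 1 lower. Without the first or the second AA library 5 member peaks were called, and the call of Sec62 was lost at 0.76 and 0.79. Without the first PGE2 library 17 were called. Among 126 other member peaks, 2 were called higher and 6 lower in PGE2 over AA, beside 2.38% and 5.79% of all other peaks.

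For 4 genes the peak over the promoter was assigned elsewhere or lay further from the annotated ends. The peaks over the promoters of Derl2, Dnajb11 and Hsp90b1 are nearer to the ends of Mis12, Tbccd1 and Ttc41. They averaged 108, 97.8 and 116 CPM with AA, 100.2, 97.0 and 112 CPM with PGE2, and 113, 93.1 and 117 CPM with vehicle. None was called with AA, at log2 changes of -0.06, 0.07 and -0.01, and the Derl2 promoter was called lower with PGE2 at -0.17. Edem1, for an ER degradation enhancer of mannosidase type, had a peak over its promoter with 49.6 and 55.2 CPM with AA, 51.7 and 75.4 CPM with PGE2, and 47.1 and 42.5 CPM with vehicle. The Edem1 change was 0.22 ± 0.23 with AA (adjusted p = 0.556) and 0.50 ± 0.23 with PGE2, and the 2 PGE2 libraries stood far apart.

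The promoter sequences of the members were read from RefSeq (build GRCm38.p6), as windows of 300 bases that run from 250 bases before to 50 after the annotated gene start. A window was found for 35 of the 42 genes. Entries for Sec61a1, Ssr2, Hyou1, Manf, Ern2, Atf6 and Derl1 were not matched. The ER stress response element, CCAAT and CCACG 9 bases apart, is known as a site of ATF6 together with NF-Y. It was found on either strand in 8 member promoters (22.9%), those of Calr, Canx, Creld2, Dnajc3, Hsp90b1, Hspa5, Pdia6 and Syvn1, against 0.137% of the 27025 genes with a window. The second form, ATTGG, 1 base and CCACG, stood in Dnajb11 and Herpud1 (5.71%), against 0.0444% of genes. The element TGACGTGG, known as an XBP1 site, was in 0 members and 0.714% of genes, and the cyclic AMP response element TGACGTCA in 0 members and 2.03% of genes. The amino acid response element TGATGNAA, known from ATF4 targets, was in 1 member (Herpud1) and 4.51% of genes, and CCAAT alone in 29 members (82.9%) and 41.1% of genes. The CCAAT count includes the CCAAT inside both ER stress elements. The 27025 genes were not limited to protein-coding genes or to genes with a peak, so these shares stand against a wider set. A match is a description of letters and not a bound site.

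The ER stress element was in none of the promoters of Stt3b, Sec62, Pdia3 and Rpn2, the genes with the largest PGE2 changes. Over the 7 of them with a tested promoter peak the median log2 change was 0.19 with AA and 0.28 with PGE2, against 0.10 with AA and 0.24 with PGE2 over the 24 peaks without it. The promoters below show both kinds, each 5′ to 3′ on the strand of the gene, with the outer letters of an ER stress element or a whole amino acid response element in capitals. Hspa5 (chr2:34771840-34772139, + strand) and Canx (chr11:50325624-50325923, − strand) hold the first form, starting 65 and 145 bases before the gene start. Herpud1 (chr8:94386179-94386478, + strand) holds the second form 52 bases before the start and the amino acid response element as TTGCATCA on the opposite strand. Stt3b (chr9:115310419-115310718, − strand), Pdia3 (chr2:121413652-121413951, + strand) and Sec62 (chr3:30792626-30792925, + strand) are shown as 3 of the genes with the largest PGE2 changes, and none of these elements was found in them. Their GC content was 71.0%, 75.7% and 46.0%, against 61.3% in Hspa5, 63.0% in Canx and 68.3% in Herpud1.
Hspa5: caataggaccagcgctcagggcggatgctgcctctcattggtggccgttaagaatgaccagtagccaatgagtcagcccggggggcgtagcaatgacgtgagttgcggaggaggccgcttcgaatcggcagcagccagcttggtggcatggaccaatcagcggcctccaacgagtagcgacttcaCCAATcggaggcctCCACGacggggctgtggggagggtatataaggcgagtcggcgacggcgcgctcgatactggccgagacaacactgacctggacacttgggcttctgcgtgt
Canx: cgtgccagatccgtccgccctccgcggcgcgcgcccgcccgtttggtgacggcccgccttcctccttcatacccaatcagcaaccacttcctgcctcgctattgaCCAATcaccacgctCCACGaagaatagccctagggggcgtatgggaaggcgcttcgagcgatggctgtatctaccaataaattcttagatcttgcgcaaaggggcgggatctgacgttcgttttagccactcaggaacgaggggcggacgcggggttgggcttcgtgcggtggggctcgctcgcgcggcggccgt
Herpud1: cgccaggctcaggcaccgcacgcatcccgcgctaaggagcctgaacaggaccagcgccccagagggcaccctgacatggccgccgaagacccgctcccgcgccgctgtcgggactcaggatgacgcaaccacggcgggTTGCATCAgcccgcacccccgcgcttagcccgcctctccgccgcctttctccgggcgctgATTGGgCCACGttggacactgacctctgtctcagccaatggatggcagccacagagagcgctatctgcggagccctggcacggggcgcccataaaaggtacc
Stt3b: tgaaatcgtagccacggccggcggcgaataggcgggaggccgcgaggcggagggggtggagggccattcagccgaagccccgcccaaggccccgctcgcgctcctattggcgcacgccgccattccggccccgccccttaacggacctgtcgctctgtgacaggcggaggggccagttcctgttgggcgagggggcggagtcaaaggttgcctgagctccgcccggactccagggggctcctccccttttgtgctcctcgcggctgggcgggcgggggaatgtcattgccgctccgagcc
Pdia3: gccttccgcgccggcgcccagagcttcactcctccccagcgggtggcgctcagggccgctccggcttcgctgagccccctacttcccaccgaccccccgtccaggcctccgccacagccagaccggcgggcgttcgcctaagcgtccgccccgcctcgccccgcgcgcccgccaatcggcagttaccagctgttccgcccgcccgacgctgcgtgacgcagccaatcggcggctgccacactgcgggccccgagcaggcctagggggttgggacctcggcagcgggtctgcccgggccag
Sec62: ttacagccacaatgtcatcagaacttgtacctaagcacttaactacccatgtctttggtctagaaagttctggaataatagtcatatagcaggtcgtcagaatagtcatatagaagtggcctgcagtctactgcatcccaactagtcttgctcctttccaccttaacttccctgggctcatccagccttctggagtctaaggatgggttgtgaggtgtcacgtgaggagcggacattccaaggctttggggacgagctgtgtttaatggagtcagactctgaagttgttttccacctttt

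Further than 1 kb from a gene end, 16 of 126 tested member peaks rose and 11 fell with AA, beside 17.1% and 15.1% of all 73237 other peaks. With PGE2, 6 were called higher and 7 lower, beside 10.7% and 11.7%. Under separate scaling the PGE2 split was 11 higher and 5 lower (68.8% higher instead of 46.2%), and when scaled by library totals it was 5 higher and 10 lower (33.3%). Without the first AA library, or without either vehicle library, 17 other peaks were called with AA instead of 27, and without the second vehicle library 7 were called with PGE2 instead of 13. The other peaks were weak, with a median of 4.03 CPM with vehicle, against 46.7 CPM for the strongest gene-end peaks.

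The smallest AA p-value among these peaks stood at Hspa5, whose promoter peak was not called. A peak centred 1.76 kb upstream of the Hspa5 start (chr2:34770153-34770512) had 16.5 and 16.3 CPM with AA, 9.08 and 9.57 CPM with PGE2, and 6.97 and 7.63 CPM with vehicle. The groups did not overlap, and AA was the highest. The log2 change was 1.17 with AA (adjusted p = 3.43e-10) and 0.35, not called, with PGE2. A second Hspa5 peak 6.98 kb downstream of the start, inside the gene Rabepk, had 15.4 and 17.0 CPM with AA, 9.16 and 9.26 CPM with PGE2, and 9.42 and 10.9 CPM with vehicle, with log2 changes of 0.67 (adjusted p = 1.58e-05) and -0.14. In PGE2 over AA both were called lower, at -0.81 and -0.81. Both Hspa5 peaks rose with AA in every alternative run, DESeq2 and each fit without 1 library included.

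**Figure D3:**
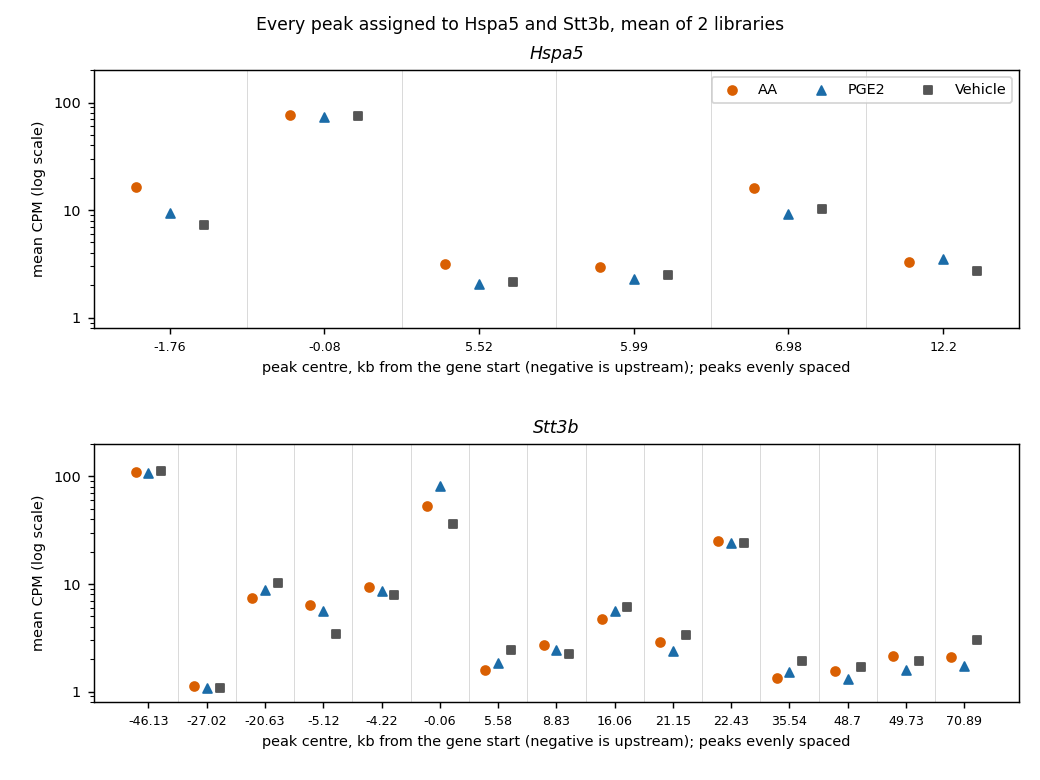
Mean CPM of 2 libraries (y axis, log scale) at every peak given to Hspa5 (upper panel) and Stt3b (lower panel), ordered along the gene by distance from the start, with AA as circles, PGE2 as triangles and vehicle as squares. At Hspa5 the promoter peak is level across groups while the peaks at -1.76 and 6.98 kb are higher with AA, and at Stt3b the promoter peak at -0.06 kb and the peak at -5.12 kb are higher in both treated groups.

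Stt3b had the most peaks of any member, 15 in all. A peak 5.12 kb upstream of its start had 6.90 and 5.87 CPM with AA, 5.19 and 6.10 CPM with PGE2, and 3.06 and 3.82 CPM with vehicle. It was above vehicle in all treated libraries, with a log2 change of 0.90 with AA (adjusted p = 1.78e-04) and 0.71 with PGE2. The PGE2 call of this peak was lost without the second PGE2 library at 0.59 and without the first vehicle library at 0.56. The other peaks of Stt3b included 1 that fell with AA, 20.6 kb upstream (log2 change -0.47, adjusted p = 0.00791), and lost its call without the first AA library at -0.39 and without the first vehicle library at -0.31.

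A Dad1 peak 13.0 kb from the 3′ end of the gene had 7.67 and 7.995 CPM with AA, 6.79 and 6.79 CPM with PGE2, and 3.45 and 3.59 CPM with vehicle. Both treated groups were clear of vehicle, with a log2 change of 1.15 with AA (adjusted p = 6.82e-07) and 0.95 with PGE2. A peak within Atf6, 3.59 kb from an end of the gene, had 9.57 and 8.32 CPM with AA, 6.11 and 7.49 CPM with PGE2, and 4.52 and 4.12 CPM with vehicle. The Atf6 change was 1.06 with AA (adjusted p = 1.45e-06) and 0.65 with PGE2, and the PGE2 call was lost without the second PGE2 library at 0.50 and without the second vehicle library at 0.59. A Sec61b peak 16.4 kb beyond its 3′ end had 6.47 and 6.04 CPM with AA, 5.88 and 6.56 CPM with PGE2, and 3.75 and 3.36 CPM with vehicle, with log2 changes of 0.82 (adjusted p = 4.22e-04) and 0.80. These Dad1, Atf6 and Sec61b peaks rose with AA in every alternative run.

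Other distal peaks were lower after treatment, though with DESeq2 none of the 11 that fell with AA was called, and those of Xbp1 and Derl1 (at 7.87 kb) were the only ones called in each fit without 1 library. An Xbp1 peak 21.4 kb upstream, a strong one, had 49.4 and 49.0 CPM with AA, 53.0 and 53.1 CPM with PGE2, and 59.0 and 62.8 CPM with vehicle. It fell with AA by 0.31 on the log2 scale (adjusted p = 1.55e-04), while the Xbp1 promoter rose. A Derl1 peak 7.87 kb from the gene had 7.95 and 6.12 CPM with AA, 9.004 and 8.03 CPM with PGE2, and 10.95 and 10.99 CPM with vehicle, and fell with AA by 0.63 (adjusted p = 4.13e-04). A second Derl1 peak, 2.70 kb inside the gene, had 18.7 and 19.3 CPM with AA, 16.5 and 18.4 CPM with PGE2, and 24.3 and 23.6 CPM with vehicle, at log2 changes of -0.33 (adjusted p = 0.00566) and -0.45. Its AA call was lost without the first AA library (-0.31) and without the first vehicle library (-0.31). A Sel1l peak 15.6 kb inside the gene had 14.3 and 17.4 CPM with AA, 13.1 and 13.0 CPM with PGE2, and 21.9 and 21.4 CPM with vehicle. Its log2 change was -0.46 with AA (adjusted p = 5.15e-04), a call lost at -0.31 without the first AA library, and -0.73 with PGE2.

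**Figure D4:**
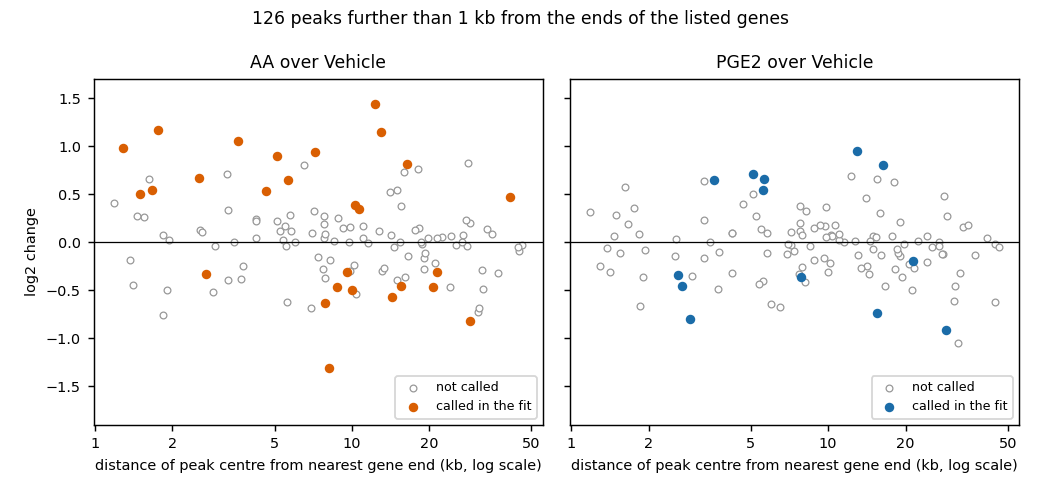
Log2 change (y axis) against distance of the peak centre from the nearest gene end (x axis, kb, log scale) for 126 tested member peaks outside gene ends, AA over vehicle on the left and PGE2 over vehicle on the right, with filled points for called peaks. With AA 16 filled points lie above 0 and 11 below, and with PGE2 6 lie above and 7 below.

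Beyond the 42 genes, lists of further secretory pathway genes gave 123 tested gene-end peaks. With AA, 24 of them rose and 5 fell, and with PGE2 48 were called higher and 7 lower. Proteasome genes, set beside them as a group outside the ER, gave 5 higher and 0 lower of 28 with AA, and 11 higher and 1 lower with PGE2. In percent, 21.7 of member peaks, 19.5 of further pathway peaks and 17.9 of proteasome peaks rose with AA. With PGE2 the shares called higher were 45.7%, 39.0% and 39.3%. Over all gene-end peaks the shares were 14.6% with AA and 31.0% with PGE2. The differences between these lists were not tested.

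**Figure D5:**
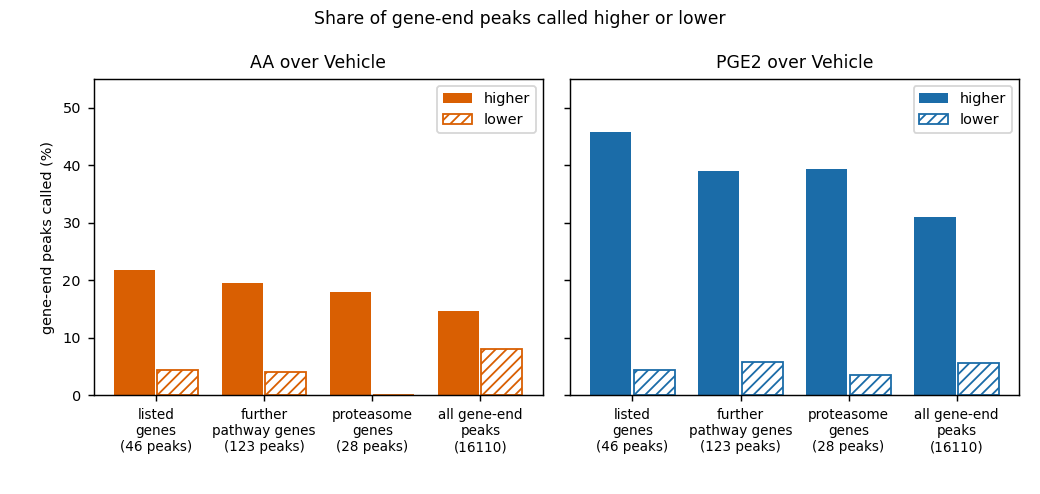
Percent of gene-end peaks (y axis) called higher (solid bars) or lower (hatched bars) in AA over vehicle on the left and PGE2 over vehicle on the right, for 46 peaks of the listed genes, 123 of further pathway genes, 28 of proteasome genes and all 16110. The solid bars of the listed genes stand at 21.7% and 45.7%, those of all gene-end peaks at 14.6% and 31.0%.

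The counts of each list stand beside 14.6% higher and 8.11% lower of all gene-end peaks with AA. With PGE2 these shares were 31.0% and 5.58%. From each list, the 2 gene-end peaks of smallest p in PGE2 over vehicle are named here and below, so they are not typical of the list. That choice used the vehicle libraries that AA is also set against. By group, signal recognition and signal peptidase genes had 4 higher and 0 lower of 15 with AA and 7 higher and 2 lower with PGE2. Srp9, for a subunit of the signal recognition particle, had 36.9 and 40.7 CPM with AA, 46.1 and 50.9 CPM with PGE2, and 30.02 and 26.4 CPM with vehicle (log2 change 0.46 with AA, adjusted p = 1.57e-05, and 0.78 with PGE2). The signal peptidase subunit gene Spcs1 stood at 0.19 with AA, not called, and 0.54 with PGE2. Other glycosylation and glycan trimming genes had 2 higher and 0 lower of 10 with AA and 3 higher and 0 lower with PGE2. The glucosidase gene Mogs (0.34 with AA, 0.59 with PGE2) and Uggt1, for the folding sensor that re-glucosylates glycoproteins (0.26 with AA, 0.41 with PGE2), were called in both contrasts. Other oxidative folding and chaperone genes had 2 higher and 1 lower of 17 with AA and 9 higher and 0 lower with PGE2. P4hb, for the archetypal protein disulfide isomerase, was called in both (0.24 with AA, 0.39 with PGE2), and Dnajc1 with PGE2 (0.12 with AA, 0.59 with PGE2).

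Other degradation genes had 5 higher and 1 lower of 17 with AA and 9 higher and 0 lower with PGE2. Ube2j1, for an ER ubiquitin-conjugating enzyme, had 13.2 and 13.95 CPM with AA, 17.3 and 25.6 CPM with PGE2, and 9.04 and 8.77 CPM with vehicle (log2 change 0.60 with AA, adjusted p = 0.0167, and 1.27 with PGE2). Nploc4, a cofactor of the p97 extraction machine, stood at -0.05 with AA, not called, and 0.81 with PGE2. COPII and COPI transport genes carry cargo between ER and Golgi. They had 6 higher and 0 lower of 39 with AA and 12 higher and 0 lower with PGE2. The shares called higher were close to the 14.6% and 31.0% of all gene-end peaks. Sec24a, a COPII cargo adaptor, had 38.1 and 39.2 CPM with AA, 49.6 and 52.9 CPM with PGE2, and 29.1 and 27.9 CPM with vehicle, with log2 changes of 0.44 (adjusted p = 1.04e-05) and 0.85. The COPII GTPase gene Sar1a rose with AA at 0.28 and stood at 0.53 with PGE2. Other stress response genes had 5 higher and 3 lower of 25 with AA and 8 higher and 5 lower with PGE2. In that list Nupr1, a stress-induced chromatin protein gene, had 7.81 and 9.55 CPM with AA, 7.40 and 7.95 CPM with PGE2, and 13.0 and 13.0 CPM with vehicle (log2 change -0.59 with AA, adjusted p = 2.99e-04, and -0.76 with PGE2). A peak at the 3′ end of Atf3, a stress-induced transcription factor gene, fell with AA by 0.38 (adjusted p = 0.0095) and stood at -0.92 with PGE2, while its 5′ peak was not called in either contrast.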

How the data were processed

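The deposited table held raw read-pair counts in consensus peaks for all 6 libraries. The authors made these counts with featureCounts 1.6.3, per the file headers, unstranded, with reads reduced to their 5′ ends and a pair counted in each peak it overlapped. The submitters' processing notes name Trim Galore, BWA, Picard, SAMtools, MACS2 and build mm10. No shift for the transposase is stated in the sources used here. Peaks were assigned to the nearest protein-coding gene of a RefSeq table of the same build. Low peaks were removed with filterByExpr (89347 tested, 1476 removed). Counts were scaled by TMM and fitted with edgeR 4.0.16 (R 4.3.3, limma 3.58.1), by the robust quasi-likelihood test over all 6 libraries, with Benjamini-Hochberg adjustment over all tested peaks and a threshold of 0.05. The median biological coefficient of variation was 4.49%, on 3 residual degrees of freedom. The median prior degrees of freedom were 42.32, so p-values rest largely on a spread shared across peaks. Between the libraries of a group, the chi-square per degree of freedom was 1.094 for vehicle, 1.121 for AA and 1.565 for PGE2. The procedure was tested on simulated data. CPM values are TMM-scaled. DESeq2 1.42.0, other scalings, no filter, other distances, the replicate block and leaving out each library were alternatives. Tables and figures used Python 3.11.15, pandas 2.3.3 and matplotlib 3.10.9.

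Every gene was named by the gene-end peak of highest mean count. Library values were given for the stress sensors and transcription factors and, in each other role, for the 3 genes of smallest p in PGE2 over vehicle and the 2 in AA over vehicle. Of other peaks, the 6 of smallest p in each contrast over vehicle were named, 1 per gene. Of each further pathway list, the 2 gene-end peaks of smallest p in PGE2 over vehicle were named. Further values of members, the second peaks of Hspa5, Edem2, Atf4 and Stt3b, the 5′ peak of Atf3 and the split at 50 CPM were chosen after their values were seen. The genes and lists were chosen with earlier results of these data known.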

Additional observations from a re-analysis of the deposited data

How the results depend on the processing

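With DESeq2 in place of edgeR, calls fell in number throughout. Over all peaks, 9058 were called with AA instead of 27281, 7377 with PGE2 instead of 22257, and 582 in PGE2 over AA instead of 8886. Among member gene-end peaks, DESeq2 called 4 with AA instead of 12, 12 with PGE2 instead of 23, and 3 in PGE2 over AA instead of 10. Among other member peaks it called 6 with AA instead of 27, 3 with PGE2 instead of 13, and 2 in PGE2 over AA instead of 8. With peaks assigned within 10 kb, fewer other peaks belonged to the genes, and 15 were called with AA and 8 with PGE2. Leaving out 1 library gave 18219 to 30456 calls with AA, 13667 to 21329 with PGE2 and 3072 to 9643 in PGE2 over AA over all peaks. For member gene-end peaks the ranges were 6 to 17, 16 to 23 and 5 to 17, and for other member peaks 17 to 31, 7 to 15 and 3 to 9. A group left with 1 library is assumed to vary like the others. With library totals as the scaling, calls over all peaks were split almost evenly with AA (13725 higher, 14324 lower) and with PGE2 (11526 higher, 12127 lower). Under separate scaling the Calr gene-end peak turned to -0.14 with PGE2. The causes were not tested. Libraries with the same number did not deviate together. The correlations were 0.00 for AA with vehicle, -0.02 for PGE2 with vehicle and 0.04 for PGE2 with AA. These values cannot show whether libraries of the same number were prepared together. With the replicate block, member gene-end calls were 12 with AA, 23 with PGE2 and 13 in PGE2 over AA, and other member calls 27, 13 and 9. Over all peaks the block gave 27630, 22672 and 9414 calls. For the strongest gene-end peaks of the 37 genes, in AA and in PGE2 over vehicle, of 888 comparisons with an alternative 55 lost a call, 20 gained one and 1 reversed. With 2 libraries a group, small changes at weak peaks may go undetected.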
